A study of Mus musculus with 12 samples.

Results

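Mouse embryonic fibroblasts lacking both Fadd and Mlkl were compared with the same cells after Fadd had been put back, across all genes. These 6 libraries, 3 in each group, were chosen by the sample titles from the 12 of the study. All cells were immortalised with SV40 large T antigen and were Mlkl-/-, so the gene that differs by design between the groups is Fadd. The knockout cells (Fadd-/-, Mlkl-/-) carried an empty vector and the restored cells carried a vector for Fadd. The labels describe the RNA as coming from independent cultures, harvested without treatment 24 h after plating. The other 6 libraries came from Casp8-/-, Mlkl-/- fibroblasts with an empty vector or with Casp8 put back, and served as a second line for comparison and, in the shared fit, for the estimate of spread behind every p. How many clones or embryos stand behind each cell population, and which promoter drove the returned Fadd, was not given in the sources used here.

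FADD is the adaptor protein that joins death receptors such as FAS to caspase-8 through its death domain and death effector domain. Caspase-8 recruited in this way can start apoptosis, and it also cleaves the kinases RIPK1 and RIPK3 and so holds back necroptosis, a lytic form of death carried out by MLKL. ZBP1 is an interferon-induced sensor of nucleic acids in the Z form that can engage RIPK3, and the title of the series concerns spontaneous expression of ZBP1. Cells without MLKL cannot complete necroptosis. In bulk RNA of this kind, fewer cells of a type and less RNA per cell cannot be told apart.

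The 6 libraries held between 39848303 and 54731635 expected counts, and 16396 genes passed the filter on low counts. Levels are given as CPM, counts scaled to a common library size and for library composition, and log2 changes are knockout minus restored. A gene was called when its adjusted p in edgeR's quasi-likelihood test was under 0.05, with the replicate number as a pair. Knockout replicate 1 stood apart in composition, with 81.38% of its counts in protein-coding genes against 85.74% to 87.72% in the other 5 libraries and 1.43% in mitochondrial genes. Its partner, restored replicate 1, held 1.24% mitochondrial counts and the remaining 4 libraries held 0.754% to 0.932%. Of 16 fibroblast markers, 14 passed the filter, with a summed level of 3110 to 5050 CPM in the knockout and 4564 to 6778 CPM in the restored libraries. Vim, a filament protein of mesenchymal cells, averaged 1268 and 1595 CPM, but Thy1 and Lum had no counts in any of the 6 libraries. Summed leukocyte markers reached at most 4.11 CPM, and Ptprc, Cd3e, Adgre1 and Tyrobp were at 0. Summed endothelial markers reached at most 1.19 CPM and muscle markers at most 5.41 CPM. Summed neural markers stood at 180 to 254 CPM without Fadd and 154 to 249 CPM with it, and epithelial markers at 1.23 to 5.25 CPM against 6.32 to 35.1 CPM.

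Fadd itself, on the reverse strand of chromosome 7 (GRCm38, 144577318 to 144582463), was counted at 0.176, 0.0364 and 0.0876 CPM in the knockout libraries. In the restored libraries it stood at 26.1, 19.1 and 25.8 CPM, so every library matched its label. The fall was 7.90 on the log2 scale (SE 0.33, adjusted p 0.000215), and the adjusted p stayed at 0.00818 or below when any pair was left out. The restored level was above the 10.4 ± 1.53 and 9.65 ± 0.96 CPM (SD, n = 3) of the Casp8-line knockout and restored cells. Per transcript length, restored cells held Fadd at 3.76 TPM, a unit scaled for length and depth, and its partner Casp8 at 14.7 TPM. Casp8 read 43.7, 46.2 and 39.3 CPM without Fadd and 46.8, 54.6 and 45.0 CPM with it, and the groups overlapped (log2 -0.18, SE 0.29, adjusted p 0.8345). Mlkl transcripts were still counted in every library, at 6.63 to 11.75 CPM in the knockout and 7.76 to 15.9 CPM in the restored cells. The gene tables do not resolve which exons were deleted, so this level does not check the Mlkl label.

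Without Fadd, 444 of 16396 genes tested were called (2.71%), of which 106 were higher (0.646%) and 338 were lower (2.06%). The falls were also the larger changes. Of 173 called genes that differed at least 8-fold, 148 were lower in the knockout and 25 were higher. For 24 called genes 1 group had no counts at all, and in 23 of these it was the knockout. Protein-coding genes made up 415 of the 444. In every pair 442 kept 1 direction, which a call with pairs favours, while 25.4% of all genes were above 0 in every pair and 27.1% below. In 392 of the 444 the knockout and restored libraries did not overlap, against 2711 of all genes tested (16.5%). The median log2 change over all genes was -0.003. The count depended strongly on the model, since 250 genes (1.52%) were called without the pairs, 529 with limma-voom (3.23%, with 1.07% higher and 2.15% lower) and 1346 with DESeq2 (8.21%, with 2.78% higher and 5.43% lower). Before adjustment 2749 genes (16.8%) had a p under 0.05, 6.9% of those tested being higher and 9.87% lower. It fell to 94, 64 and 72 when pair 1, 2 or 3 was left out, which leaves 2 pairs of this line.

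**Figure D1:**
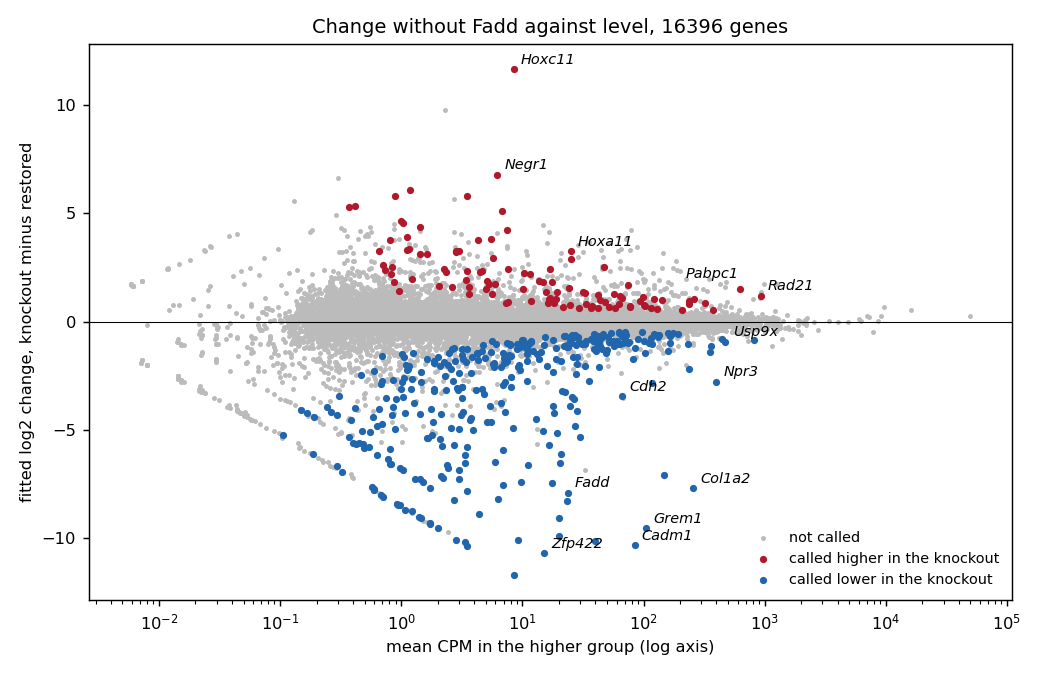
Fitted log2 change (knockout minus restored, vertical axis) against mean CPM in the higher group (horizontal log axis) for 16396 genes, with the 106 called higher in red and the 338 called lower in blue. The called falls reach far below the called rises, and the diagonal rows at the lower left are genes with no or few counts in the knockout, whose fitted value depends on the prior count.

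Genes nearly silent in the knockout and clearly expressed after Fadd was put back gave the largest falls. Gas6, the secreted ligand of the TAM receptor kinases AXL, MERTK and TYRO3 (chromosome 8, 13465374 to 13494490, reverse strand), had no counts in any knockout library. In the restored libraries it stood at 13.0, 7.49 and 5.02 CPM, which makes it at least 451-fold lower without Fadd when 3 counts over the knockout group are taken as the floor (adjusted p 0.0112). Its adjusted p ranged from 0.03895 to 0.0648 with 1 pair left out. Zfp422, a zinc finger gene (chromosome 6, 116624016 to 116628999, reverse strand), had 1 count in the 3 knockout libraries against 2011 in the restored ones. The restored level was 2360 times the knockout level, and counting error alone allows 423 to 93200 at 95% confidence (adjusted p 0.000185). Its restored libraries lay close together at 13.5, 16.1 and 15.4 CPM. Grem1, a secreted antagonist of bone morphogenetic proteins (chromosome 2), read 0, 0.109 and 0.328 CPM without Fadd and 11.2, 88.9 and 215.8 CPM with it. In both groups its level was lowest in pair 1 and highest in pair 3, and the groups did not overlap (log2 -9.55, SE 0.30, adjusted p 7.5e-05).

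Promoters of these 3 genes are shown because their transcripts were near 0 in 1 group only. Each run holds 250 bases before the RefSeq transcription start and 50 after it on GRCm38.p6, read 5′ to 3′ along the gene, with every CG dinucleotide in capitals. The Zfp422 window (chr6:116628652-116628951, reverse strand) has 32 CG dinucleotides, that of Gas6 (chr8:13494486-13494785, reverse strand) 17, and that of Grem1 (chr2:113758599-113758898, reverse strand) 28. Over the 10544 tested genes with a promoter in the table the median was 21, with Zfp422 and Grem1 above it and Gas6 below. No groups of genes are compared, since the table holds promoters for 64.3% of the genes tested. DNA methylation was not measured here.
Zfp422: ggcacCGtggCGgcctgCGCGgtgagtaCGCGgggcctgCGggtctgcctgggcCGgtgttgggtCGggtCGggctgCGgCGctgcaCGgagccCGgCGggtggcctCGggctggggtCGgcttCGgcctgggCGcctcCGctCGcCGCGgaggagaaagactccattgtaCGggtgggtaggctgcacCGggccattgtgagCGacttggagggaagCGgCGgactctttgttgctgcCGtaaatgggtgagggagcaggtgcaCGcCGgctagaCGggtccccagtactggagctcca
Gas6: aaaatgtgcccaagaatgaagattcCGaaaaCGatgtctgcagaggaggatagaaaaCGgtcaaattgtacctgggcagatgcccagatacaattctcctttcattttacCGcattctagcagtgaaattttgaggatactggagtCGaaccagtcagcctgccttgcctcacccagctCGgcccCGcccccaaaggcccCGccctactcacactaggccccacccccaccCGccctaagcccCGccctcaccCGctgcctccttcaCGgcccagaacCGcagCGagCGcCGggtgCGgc
Grem1: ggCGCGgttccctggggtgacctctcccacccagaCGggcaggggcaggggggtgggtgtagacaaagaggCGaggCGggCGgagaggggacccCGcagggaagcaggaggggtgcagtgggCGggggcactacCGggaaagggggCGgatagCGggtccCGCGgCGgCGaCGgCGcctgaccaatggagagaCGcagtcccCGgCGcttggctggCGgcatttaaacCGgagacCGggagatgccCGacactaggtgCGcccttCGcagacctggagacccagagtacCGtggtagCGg

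Several of the named falls encode matrix or adhesion proteins. Cadm1, an immunoglobulin-like adhesion molecule, read 0.0351, 0.109 and 0.0438 CPM in the knockout and 52.1, 115.4 and 85.7 CPM in the restored libraries. Its log2 change was -10.34 (SE 0.55, adjusted p 0.00125), and 0.0341 was the highest adjusted p with a pair left out. Fbln2, a fibulin of basement membranes and elastic fibres, stood at 0.0876 CPM or less without Fadd and at 25.85, 38.0 and 54.6 CPM with it (log2 -10.15, SE 0.70, adjusted p 0.00134). Nid1, the basement membrane linker nidogen, reached 0.182 CPM at most without Fadd and 9.29 to 32.2 CPM with it (log2 -8.28, SE 0.47, adjusted p 0.00087). Col1a2, the second chain of type I collagen, stood at 0.966, 2.06 and 0.635 CPM against 394, 260 and 113 CPM. Its partner chain Col1a1 was counted at 649, 662 and 222 CPM without Fadd and 1670, 1301 and 475 CPM with it, and those groups overlapped (log2 -1.15, SE 0.57, adjusted p 0.379). The Col1a2 fall was -7.70 (SE 0.78, adjusted p 0.00584, and 0.0486 to 0.0616 with a pair left out). Even the restored libraries were far from the Casp8 line, where Col1a2 averaged 4321 CPM in the knockout and 4155 CPM in the restored cells.

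Among other falls, Cdkn1c, an imprinted inhibitor of cyclin-dependent kinases, went from 47.05, 10.3 and 3.21 CPM with Fadd to 0.0878, 0.0182 and 0 CPM without it. The restored libraries differed widely among themselves, but each lay far above its knockout partner (log2 -9.06, SE 0.35, adjusted p 0.000185). Scrn1, which encodes secernin, had 3 counts over the knockout libraries against 2671 over the restored ones, a ratio of 1040 with an interval of 357 to 5060 (adjusted p 0.00171). Enpp5, a membrane protein of the ectonucleotide pyrophosphatase family, had 1 count against 1245 (ratio 1460, interval 261 to 57700, adjusted p 0.00171, and 0.0605 at most with a pair left out). Tnfrsf11b, which encodes osteoprotegerin, the decoy receptor for RANKL, stood at 0.0876 CPM or less without Fadd. In the restored libraries it ranged from 1.41 and 3.42 to 16.1 CPM (log2 -7.53, SE 0.50, adjusted p 0.00125). Counting intervals cover counting error only.

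**Figure D2:**
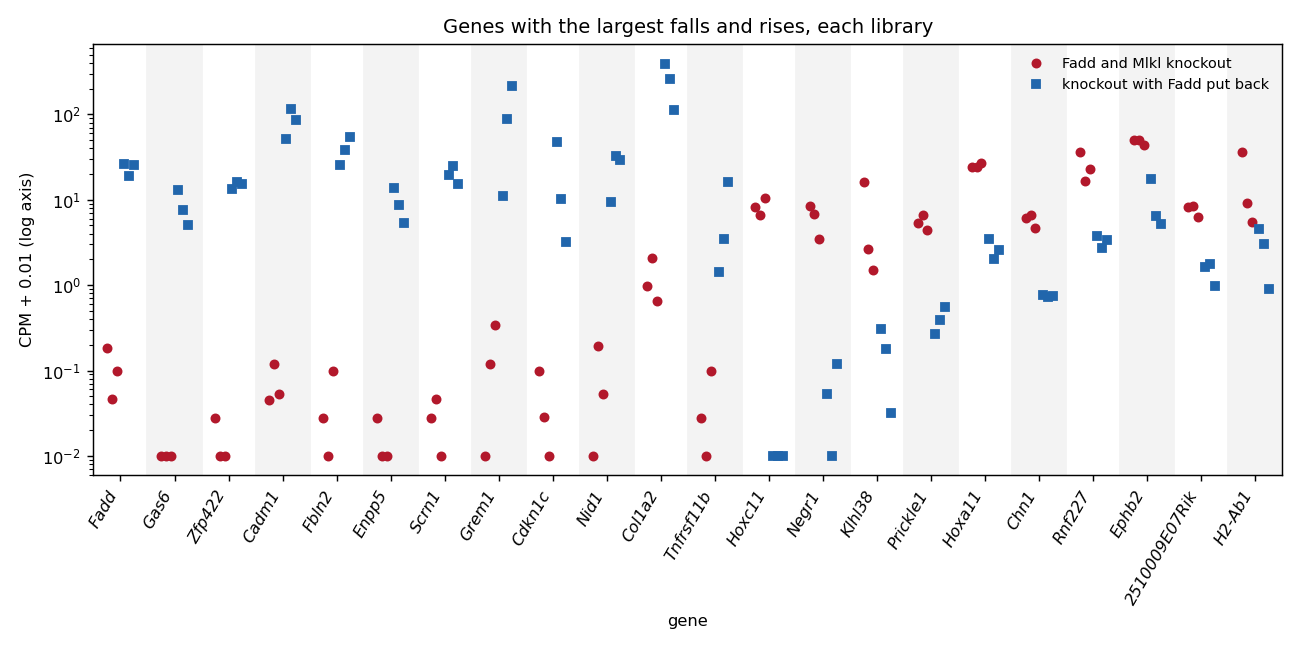
CPM plus 0.01 on a log axis for each of the 6 libraries (red circles knockout, blue squares restored, replicates 1 to 3 from left to right) for the 12 largest falls and 10 largest rises by the naming rule. In each of these 22 genes the knockout and restored libraries do not overlap, and points at the bottom edge have no counts.

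The largest rises were fewer and included developmental regulators. Hoxc11, a homeobox gene of the posterior HoxC cluster (chromosome 15, 102954427 to 102957708), was counted at 8.33, 6.59 and 10.55 CPM without Fadd and had no counts in any restored library. That is at least 375-fold higher in the knockout (adjusted p 0.00125, and 0.0134 at most with a pair left out). Hoxa11 (chromosome 6, 52242106 to 52245810) stood at 24.1, 24.0 and 26.95 CPM against 3.50, 2.00 and 2.54 CPM (log2 3.25, SE 0.20, adjusted p 0.000962). The long noncoding RNA Hoxa11os, on the opposite strand of the same locus, rose by 4.23 (SE 0.21, adjusted p 0.000524). Whether the counting used strand was not given in the sources used here, so reads of Hoxa11 and Hoxa11os cannot be told apart with certainty. Negr1, an IgLON adhesion molecule, read 8.41, 6.74 and 3.48 CPM without Fadd and 0.109 CPM or less with it (log2 6.79, SE 0.87, adjusted p 0.0127). Its adjusted p ranged from 0.03895 to 0.126 with a pair left out. In the Casp8 line Hoxc11 averaged 6.99 CPM in the knockout and 9.76 CPM in the restored cells. Hoxa11 averaged 22.1 and 32.9 CPM there, and Hoxa11os 5.41 and 6.42 CPM. For these Hox transcripts it was thus the Fadd-restored libraries that stood apart from the other groups. Negr1 averaged 0.825 and 1.17 CPM in the Casp8 line, between the Fadd-line knockout and restored levels.

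Further rises came with more spread or smaller size. Ephb2, a receptor tyrosine kinase for ephrin-B ligands, stood at 49.9, 49.8 and 43.2 CPM without Fadd and 17.4, 6.36 and 5.21 CPM with it (log2 2.51, SE 0.41, adjusted p 0.0324). Chn1, a GTPase-activating protein for RAC, showed little spread, with 4.64 to 6.55 CPM against 0.723 to 0.747 CPM (log2 2.95, SE 0.26, adjusted p 0.0031). Prickle1, of the planar cell polarity pathway, rose by 3.81 (SE 0.62, adjusted p 0.0302), Rnf227 by 2.88 (SE 0.41, adjusted p 0.0175) and the uncharacterised gene 2510009E07Rik by 2.42 (SE 0.36, adjusted p 0.0205). Klhl38 was carried mostly by knockout replicate 1, at 16.1 CPM against 2.64 and 1.49 CPM in the other knockout libraries. Its restored libraries stood at 0.299 CPM or less (log2 5.12, SE 0.63, adjusted p 0.0174). Without a pair, the highest adjusted p was above 0.05 for each of Ephb2, Chn1, Prickle1, Rnf227, 2510009E07Rik and Klhl38, reaching 0.209 for Klhl38 and 0.0513 for Chn1. In the Casp8-line knockout and restored cells Ephb2 averaged 45.6 and 66.2 CPM and Prickle1 4.06 and 4.02 CPM, nearer the Fadd-line knockout. Rnf227, at 5.79 and 2.81 CPM, and Klhl38, at 0.0098 and 0.0065 CPM, were nearer the Fadd-restored cells. Chn1 lay between, at 2.06 and 1.40 CPM, and 2510009E07Rik lay above both, at 30.6 and 37.2 CPM.

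A different kind of change was linked to chromosome position. Genes in the first 30 Mb of chromosome X were lower in the knockout almost without exception. Of 54 genes there that averaged 5 CPM or more in either group, 52 were below 0, and the median log2 change was -0.90, a ratio of 0.537. The median was nearly the same in each pair, at -0.92, -0.84 and -0.85. Of all 83 genes tested in this stretch, 36 were called lower and none higher, which is 36 of the 338 falls. Beyond 30 Mb on the same chromosome 291 genes had a median of 0.004. The step lay between Wdr44, which starts at 23693051, and Gm2223, which starts at 33505661 and had a log2 change of 0.05. These stretches were picked out after their values were seen and are described without a test.

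The named genes of the X stretch serve several basic cell functions. Usp9x, a deubiquitinase, read 220, 275 and 255 CPM without Fadd and 493, 473 and 460 CPM with it (log2 -0.93, SE 0.13, adjusted p 0.0155). Uba1, the main ubiquitin-activating enzyme, stood at 99.7, 208 and 215 CPM against 297, 389 and 396 CPM (log2 -1.12, SE 0.16, adjusted p 0.0177). The lowest value of each group was in pair 1, and no knockout library reached a restored one. Rbm3, an RNA-binding protein induced by cold, fell by 0.79 (SE 0.14, adjusted p 0.0360) and Suv39h1, a histone H3 lysine 9 methyltransferase of heterochromatin, by 0.90 (SE 0.14, adjusted p 0.0228). Timp1, an inhibitor of matrix metalloproteinases, fell by 0.80 (SE 0.09, adjusted p 0.00889), and each knockout library lay below its restored partner although the groups overlapped. Among genes picked afterwards as examples, the histone deacetylase Hdac6 fell by 0.95, the histone demethylase Kdm6a by 0.74 and the kinase Cdk16 by 0.99. With any pair left out the adjusted p of Usp9x, Uba1, Rbm3, Suv39h1 and Timp1 was above 0.05, whereas the median of the stretch stayed between -0.89 and -0.87.

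The middle of chromosome 15 moved in the opposite direction. Between 30 and 60 Mb, 73 of 82 genes were above 0, with a median of 0.51 (0.49, 0.53 and 0.46 by pair), a ratio of 1.43. Of 128 genes tested there 18 were called higher and 2 lower, so this stretch holds 18 of the 106 rises. The rest of the chromosome had a median of 0.07 over 363 genes. The shift was larger near its start, with 0.70 from 30 to 40 Mb, than from 50 to 60 Mb, where it was 0.38. Just past 60 Mb, Fam84b, which starts at 60818994, was called higher (log2 1.81, adjusted p 0.0258). Beyond it, Myc, which starts at 61985391, and Pvt1 stood at 0.44 and 0.69 without being called, and Fam49b, which starts at 63929097, stood at -0.02.

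Pabpc1 and Rad21 were the most abundant called genes of this stretch. Pabpc1, the main cytoplasmic poly(A)-binding protein, read 504, 656 and 702 CPM without Fadd and 168, 227 and 268 CPM with it (log2 1.504, SE 0.13, adjusted p 0.00298). Rad21, a subunit of the cohesin ring, stood at 943, 992 and 846 CPM against 434, 404 and 376 CPM (log2 1.19, SE 0.11, adjusted p 0.00409). Neither gene's groups overlapped, and the highest adjusted p with a pair left out was 0.0509 for Pabpc1 and 0.0729 for Rad21. Pabpc1 was also higher without Casp8 in each Casp8-line pair, by 0.70, 1.16 and 0.87. Its difference between lines was not called (edgeR adjusted p 0.215). Rad21 changed by 0.28, 0.19 and 0.10 there, and its difference was called (adjusted p 0.0328). The median of the whole stretch in the Casp8-line pairs was 0.28, -0.08 and -0.15. Among examples picked afterwards, Laptm4b, Taf2, Vps13b, Cox6c and Stk3 rose by 0.95 to 1.10. Klhl38 and Tnfrsf11b, described above, also lie in this stretch.

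Smaller shifts covered the end of chromosome 11 and all of chromosome 16. From 80 Mb to the end of chromosome 11, 357 of 415 genes were below 0 with a median of -0.32 (ratio 0.801), while 462 genes before 80 Mb had a median of 0.01. On chromosome 16, 305 of 346 genes were below 0 with a median of -0.29 (ratio 0.82). On the end of 11, 14 of these genes were called lower and none higher, and on 16 there were 10 lower and 1 higher, where 2.06% of all genes tested were called lower. The 9941 genes outside these 4 stretches had a median of -0.002, with 126 called lower and 52 higher. Across the genome, 23 of 250 windows of 10 Mb had a median beyond 0.25 in either direction, and all 23 kept their sign in each pair. Since the windows were picked by values of the same pairs, the shared sign is no separate check.

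**Figure D3:**
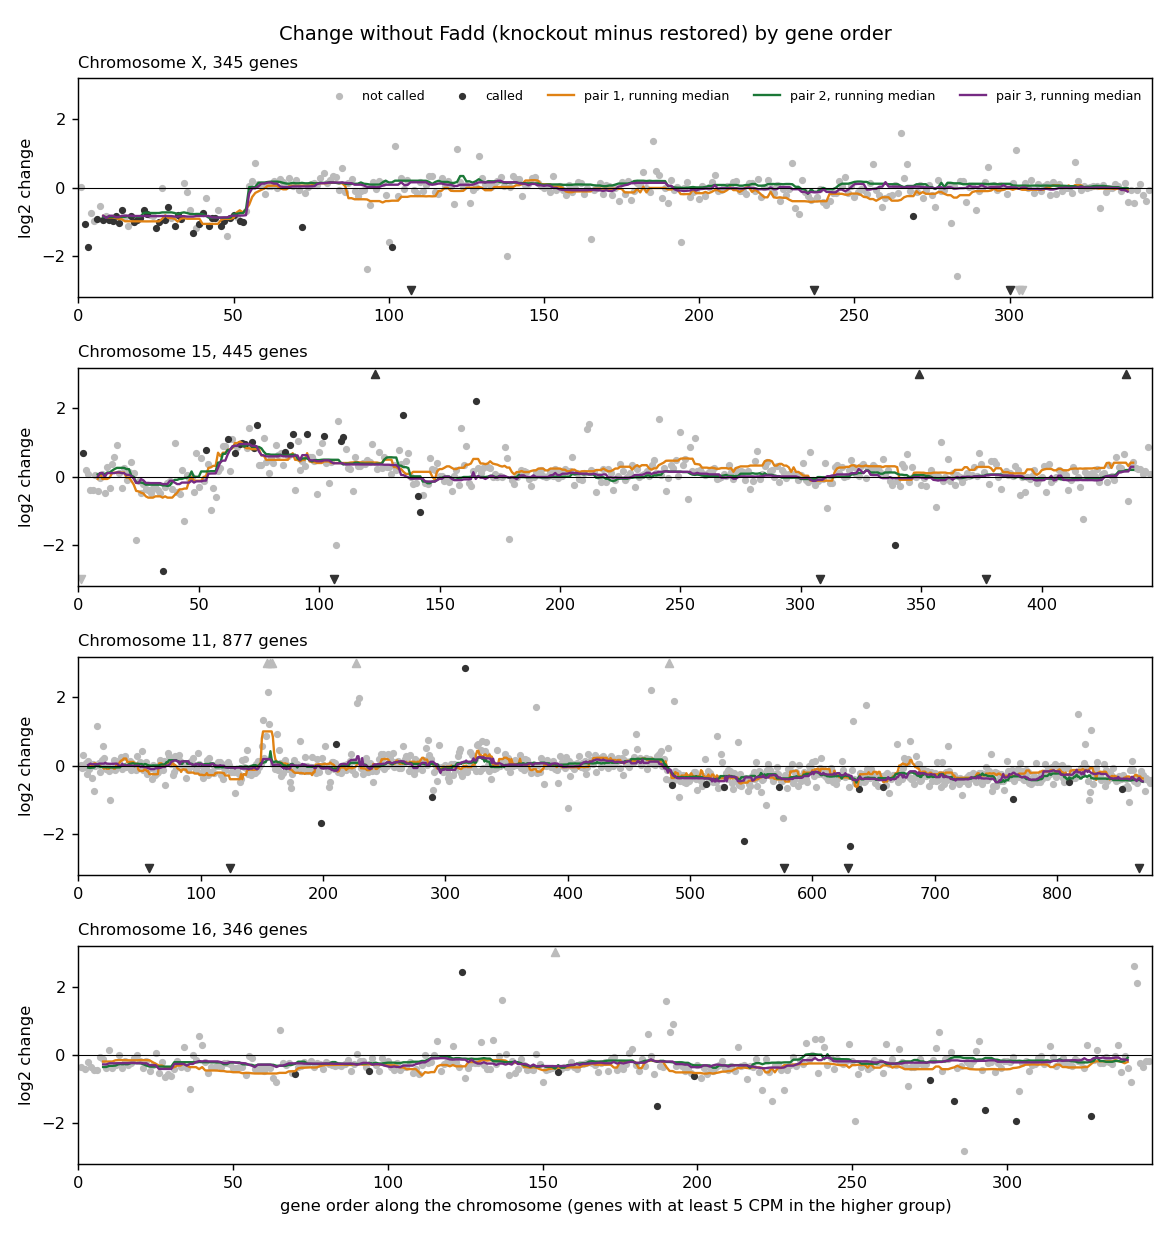
Log2 change (knockout minus restored) of genes that averaged 5 CPM or more in either group, in their order along chromosomes X, 15, 11 and 16, with running medians over 15 genes of each pair as coloured lines and triangles for genes beyond the axis. In all 3 pairs the lines lie near -0.9 over the first 54 genes of X and then step to 0, rise in the middle of 15, and drop at the end of 11.

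Set against the Casp8 line, the levels of these stretches show which group of the Fadd line stood apart. For each library the median log2 level of the stretch was taken relative to the Casp8-line mean and to all other genes. The start of X stood at -0.73, -0.75 and -0.77 in the knockout libraries and at 0.06, 0.09 and 0.13 in the restored ones. The middle of 15 stood at 0.76, 0.84 and 0.94 in the knockout, and at 0.22, 0.19 and 0.31 in the restored libraries. Knockout libraries thus lay outside both the restored and the Casp8-line libraries on X and 15. On 15 the restored libraries also lay above the Casp8-line libraries, which ranged from -0.09 to 0.12. On chromosome 16 the knockout libraries also stood apart, at -0.32, -0.28 and -0.32 against -0.02, -0.03 and -0.05. There the median change without Casp8 was also below 0 in each Casp8-line pair, at -0.10, -0.12 and -0.13. On the end of 11 it was the restored libraries, at 0.35, 0.28 and 0.27, that lay above the knockout at 0.11, -0.05 and -0.05. The first 80 Mb of 11 stood at 0.15 to 0.21 in the knockout and 0.14 to 0.16 in the restored libraries, so relative to the rest of the chromosome the end was lower in the knockout and higher in the restored libraries. DNA was not measured, and differences between the cell populations that are unrelated to Fadd cannot be told apart from the presence of Fadd in this design. Without the X and 15 stretches, 388 genes were called, 88 higher and 300 lower.

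**Figure D4:**
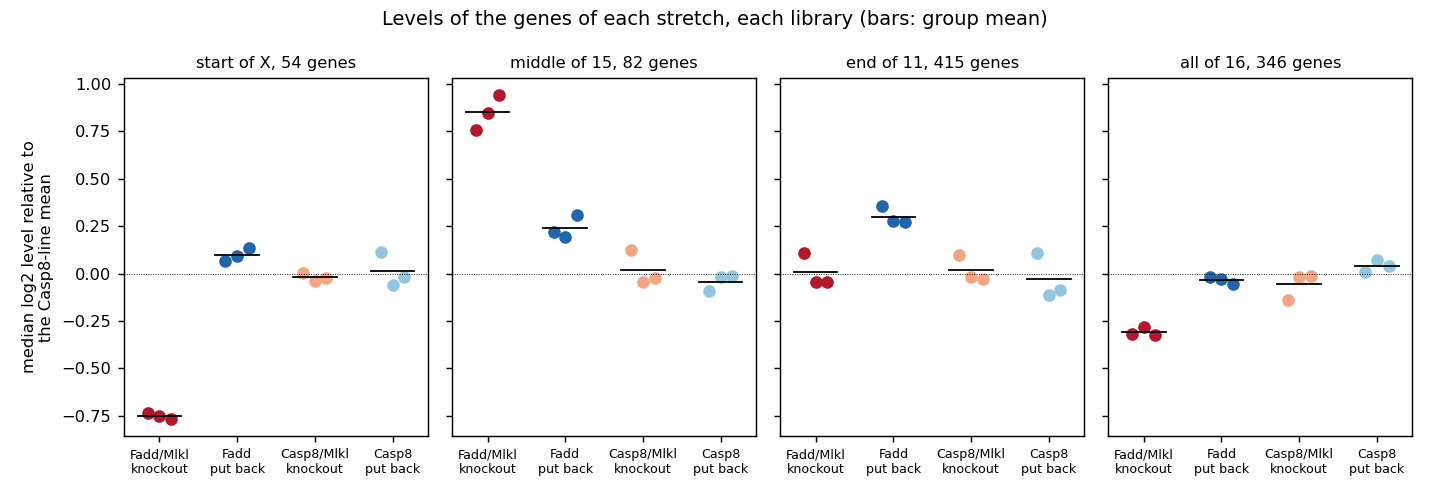
Median log2 level of the genes of each stretch relative to the Casp8-line mean, 1 point per library, with bars at the mean of 3 libraries. On the start of X the knockout libraries lie between -0.77 and -0.73 and all other libraries between -0.06 and 0.13, and on the end of 11 the Fadd-restored libraries are the highest.

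Abundant called genes outside these stretches included Npr3, the clearance receptor for natriuretic peptides, also on chromosome 15 but before 30 Mb. It read 31.8, 128 and 32.6 CPM without Fadd and 417, 605 and 169 CPM with it (log2 -2.77, SE 0.41, adjusted p 0.0209). The groups did not overlap, although the knockout library of pair 2 came near the restored library of pair 3. Cald1, an actin- and myosin-binding regulator of contractility, fell by 0.86 (SE 0.16, adjusted p 0.0412). Ptgfrn, a tetraspanin-associated membrane protein, rose by 0.51 (SE 0.10, adjusted p 0.0436). For each of Npr3, Cald1 and Ptgfrn the adjusted p was above 0.05 with any pair left out.

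Gene lists, here and below, were chosen with earlier results of these data known. Their counts beside the shares of all genes are a description and no test. Of 62 tested extracellular matrix genes other than collagens, 9 were called lower and none higher, against 2.06% and 0.646% of all genes. The median log2 change was -0.49 against -0.003 over all genes. In all 3 pairs 35 of the 62 were below 0 and 10 were above, where 27.1% and 25.4% of all genes were. Loxl2, an enzyme that crosslinks collagen and elastin, went from 316, 102 and 24.9 CPM with Fadd to 0.334, 1.09 and 0.722 CPM without it (log2 -7.09, SE 1.05, adjusted p 0.0205). Its restored level differed more than 10-fold among libraries. Fbln1, a second fibulin, was steadier at 13.8, 15.8 and 14.6 CPM against 0.228, 0.783 and 0.438 CPM (log2 -5.03, SE 0.63, adjusted p 0.0115). Vcan, the proteoglycan versican, fell by 2.04 (SE 0.26, adjusted p 0.0117) with overlapping groups, since its level spread from 1.72 to 16.5 CPM in the knockout and from 6.06 to 63.9 CPM in the restored libraries. Adamts5, a protease that cleaves such proteoglycans, fell by 1.61 (SE 0.14, adjusted p 0.00291). Loxl1 and Efemp1 were the remaining falls, besides Fbln2, Nid1 and Timp1 given above, and Efemp1 stayed under 1 CPM in every library. Fn1, which encodes fibronectin, was not called, at 276, 223 and 162 CPM against 343, 361 and 398 CPM (adjusted p 0.329).

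Collagens gave a narrower picture. Among 26 tested collagen genes Col1a2 was the single call, a fall, where 2.06% of all genes were called lower. The median change was -0.20. Col3a1 stood at 141, 100 and 69.3 CPM without Fadd and 252, 142 and 47.3 CPM with it, and its difference turned sign in pair 3 (log2 -0.27, SE 0.75, adjusted p 0.914). The near absence of Col1a2 was thus not shared by Col1a1 or Col3a1, whose groups overlapped.

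Among 47 tested adhesion genes, 5 were called lower and 1, Negr1, higher, against 2.06% and 0.646% of all genes. Besides Cadm1, the falls were the cadherins Cdh2 and Cdh3, the collagen-binding integrin subunit Itga11 and the desmosome-linked gene Perp. Cdh2, or N-cadherin, read 5.16, 5.93 and 7.29 CPM without Fadd and 52.4, 66.3 and 81.97 CPM with it (log2 -3.44, SE 0.40, adjusted p 0.00921). Cdh3, or P-cadherin, read 1.12, 3.73 and 2.85 CPM against 23.1, 24.7 and 19.6 CPM (log2 -3.25, SE 0.37, adjusted p 0.00818). Both cadherins were separated clearly in every pair. Perp, also a p53 target, fell by 4.22 (SE 0.46, adjusted p 0.00762). It was the single call among 33 tested p53 targets, where 2.71% of all genes were called. Cdkn1a, the cyclin-dependent kinase inhibitor induced by p53, moved in different directions in the pairs (log2 -0.08, SE 0.34, adjusted p 0.948). With a pair left out the highest adjusted p was 0.0922 for Cdh2, 0.0547 for Cdh3 and 0.0731 for Perp.

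Of 61 tested genes of the TGF-beta, BMP and Wnt pathways, 5 fell and none rose, against 2.06% and 0.646% of all genes, with a median of -0.38. In all pairs 32 were below 0 and 7 above, where 27.1% and 25.4% of all genes were. Apart from Grem1, the falls included Bmpr1b, a type I receptor for bone morphogenetic proteins, at 0.0527, 0.0364 and 0.0219 CPM against 1.94, 2.48 and 2.06 CPM (log2 -5.75, SE 0.35, adjusted p 0.000962). Wnt10b, a secreted Wnt ligand, read 1.88, 1.04 and 0.876 CPM against 18.4, 15.7 and 19.8 CPM (log2 -3.88, SE 0.33, adjusted p 0.00291). Restored libraries agreed closely for both genes. Ccn4, a matricellular protein induced by Wnt signalling, fell by 1.03 (SE 0.13, adjusted p 0.0112) with groups that just did not overlap, and Wnt5a fell by 5.07 from under 1 CPM (adjusted p 0.0361). Bmpr1b and Wnt10b kept an adjusted p of 0.0421 or below with any pair left out.

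Of 54 growth factor and receptor genes tested, Ephb2 rose and 4 fell, against 0.646% and 2.06% of all genes. Pdgfd, a ligand of the PDGF beta receptor, stood at 0.091 CPM or less without Fadd and at 0.875 to 1.47 CPM with it (log2 -4.20, SE 0.43, adjusted p 0.00584). Fgf5, a fibroblast growth factor, fell by 5.72 (SE 0.85, adjusted p 0.0205). Igfbp4, which binds insulin-like growth factors, read 22.1, 12.8 and 15.1 CPM with Fadd and 0.527 CPM or less without it (log2 -5.71, SE 0.98, adjusted p 0.0355). Angptl4, a secreted inhibitor of lipoprotein lipase, fell by 3.19 with overlapping groups (SE 0.48, adjusted p 0.0230). With a pair left out the highest adjusted p was 0.0644 for Pdgfd, 0.161 for Fgf5 and 0.155 for Angptl4. Gas6 was the single call among the 5 genes of the TAM system, where 2.71% of all genes were called. The receptor Axl read 556, 350 and 438 CPM without Fadd and 250, 293 and 408 CPM with it, with overlapping groups (log2 0.50, SE 0.33, adjusted p 0.520). The other ligand of the TAM receptors, Pros1, was at 28.9 to 36.8 CPM against 35.5 to 49.5 CPM (log2 -0.36, SE 0.49, adjusted p 0.793).

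Contractile genes were among the falls. Of 23 tested genes that mark fibroblast states, 3 were called lower and none higher, against 2.06% and 0.646% of all genes. Tagln, or SM22-alpha, an actin-binding protein of contractile cells, read 0.334, 4.11 and 1.69 CPM without Fadd and 12.1, 36.6 and 35.6 CPM with it (log2 -4.11, SE 0.56, adjusted p 0.0152). Acta2, smooth muscle actin, read 0.492, 13.9 and 5.89 CPM against 5.57, 52.3 and 49.3 CPM (log2 -2.75, SE 0.45, adjusted p 0.0302). Both were lowest in pair 1 in either group, and the Acta2 groups overlapped. Pparg, the adipocyte regulator, had no counts without Fadd and stood at 0.278, 1.01 and 2.41 CPM with it, at least 64.9-fold lower (adjusted p 0.0180). For each of these 3 genes the adjusted p was above 0.05 with any pair left out.

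Among 30 tested Hox genes, Hoxa11, Hoxa13 and Hoxc11 rose and none fell, against 0.646% and 2.06% of all genes. The list's median was -0.02. Hoxa13 stayed low, at 1.19, 0.382 and 0.547 CPM against 0.149, 0.0482 and 0.130 CPM (log2 2.63, SE 0.41, adjusted p 0.0245, and 0.206 at most with a pair left out). Of 65 other positional factors, 3 rose and 2 fell, against the same shares of all genes. Zeb2, a zinc finger repressor of epithelial genes, read 78.2, 64.6 and 79.6 CPM without Fadd and 14.99, 22.9 and 34.9 CPM with it (log2 1.68, SE 0.23, adjusted p 0.0149). The T-box factor Tbx3 rose by 1.09 (SE 0.21, adjusted p 0.0463) and the paired box factor Pax9 by 3.29 (SE 0.59, adjusted p 0.0412). Emx2, a homeobox factor, fell by 1.92 (SE 0.18, adjusted p 0.00475) and Sox5, an SRY-related factor, by 2.65 (SE 0.33, adjusted p 0.0112). Each of these 5 factors had groups that did not overlap. With a pair left out the highest adjusted p ranged from 0.0669 for Emx2 to 0.320 for Tbx3.

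Imprinted genes are expressed from 1 parental copy. Of 26 tested, 6 were called lower and none higher, where 2.06% and 0.646% of all genes were, with a median of -0.24. Snrpn, of the paternally expressed domain on chromosome 7, had no counts without Fadd and stood at 3.74, 2.92 and 1.78 CPM with it, at least 148-fold lower (adjusted p 0.0155). Grb10, an adaptor that restrains insulin and growth factor signalling, read 0.123, 0.309 and 0.109 CPM against 0.939, 8.60 and 5.86 CPM (log2 -4.64, SE 0.52, adjusted p 0.00817). The noncoding RNA Peg13 fell by 1.63 (SE 0.27, adjusted p 0.0340), Impact, a translational regulator, by 1.27 (SE 0.22, adjusted p 0.0366) and Sgce, which encodes epsilon-sarcoglycan, by 0.80 (SE 0.14, adjusted p 0.0361). Cdkn1c was the sixth. It was also the single call among 41 tested cell cycle genes, whose median was -0.03, where 2.71% of all genes were called. With a pair left out the highest adjusted p was 0.083 for Snrpn, 0.0984 for Grb10, 0.239 for Peg13 and 0.00815 for Cdkn1c. Peg13 was not called by limma-voom (adjusted p 0.0535). Dlk1, Meg3, Zim1, Ndn, Rasgrf1 and Nap1l5 had no counts in any of the 6 libraries. Of 36 tested silencing genes, Suv39h1, which lies in the X stretch, was the single call, where 2.71% of all genes were called. Trim28, a corepressor of retroelements, stood at 301 to 513 CPM against 353 to 452 CPM (log2 0.01, SE 0.18, adjusted p 0.997).

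Detoxification genes included 3 falls among 33 tested, where 2.06% of all genes were called lower. Gpx7, a glutathione peroxidase of the endoplasmic reticulum, had no counts without Fadd and stood at 0.256, 1.69 and 0.803 CPM with it, at least 46.5-fold lower (adjusted p 0.0153). Cyp1b1, a cytochrome P450, fell by 2.10 (SE 0.21, adjusted p 0.00549) with overlapping groups, and the glutathione transferase Gsta4 fell by 2.11 (SE 0.35, adjusted p 0.0343). The epithelial keratin Krt19, the single call among 3 tested epithelial markers, read 4.83, 4.70 and 0.941 CPM without Fadd and 33.9, 14.0 and 5.95 CPM with it (log2 -2.34, SE 0.39, adjusted p 0.0343). With a pair left out the highest adjusted p was 0.0885 for Gpx7, 0.0723 for Cyp1b1, 0.221 for Gsta4 and 0.231 for Krt19. Krt5, Krt18, Cldn4 and Cldn7 had no counts in the line.

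Antiviral effectors induced by interferon mostly lay above 0, with sizes that differed between pairs, and none passed the test. Of 59 tested antiviral effectors none was called, while 58 had a fitted change above 0. In each pair 51 were above 0, where 25.4% of all genes were. Without adjustment 17 were at p under 0.05, all higher, where 6.9% of all genes were higher. DESeq2 called 7 higher, and edgeR without the pairs and limma-voom called 1 each. The shares of all genes called higher were, in the same order, 2.78%, 0.287% and 1.07%. Their summed level was 11061, 3587 and 3546 CPM without Fadd and 1401, 2312 and 2629 CPM with it, so the groups did not overlap. The median log2 change was 1.61 in the fit and 3.73, 0.73 and 0.58 in pairs 1, 2 and 3. Pair 1 holds knockout replicate 1, the library with the lowest protein-coding and highest mitochondrial share, and the part of that library's composition in this result was not tested. In pairs 2 and 3 the medians were smaller and still above 0.

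Zbp1 read 66.1, 7.28 and 13.0 CPM without Fadd and 0.235, 2.99 and 3.78 CPM with it, so that each knockout library lay above every restored one (log2 3.00, SE 1.42, adjusted p 0.353, and 0.189 without the pairs). Among the kinases of this pathway, Ripk3 stood at 44.3 to 62.8 CPM against 42.9 to 55.9 CPM (log2 0.14, SE 0.35, adjusted p 0.900) and Ripk1 at 72.9 to 84.3 CPM against 63.3 to 73.5 CPM (log2 0.14, SE 0.13, adjusted p 0.669). Over 13 tested genes of necroptosis and pyroptosis none was called, 3 were at an unadjusted p under 0.05, and DESeq2 called 3. Of all genes, 2.71% were called, 16.8% were at that unadjusted p, and DESeq2 called 8.21%.

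Isg15, a ubiquitin-like protein, read 264, 68.5 and 67.7 CPM without Fadd and 10.2, 34.8 and 44.7 CPM with it (log2 1.92, SE 0.97, adjusted p 0.387). Irf7, the transcription factor that amplifies interferon production, read 450, 44.3 and 70.7 CPM against 14.0, 20.6 and 26.3 CPM (log2 2.37, SE 1.15, adjusted p 0.366). Ifit1, which binds viral RNA lacking cap methylation, read 323, 109 and 71.5 CPM against 14.99, 66.4 and 47.5 CPM (log2 1.75, SE 0.86, adjusted p 0.375). In all 3 genes the knockout and restored libraries did not overlap, with knockout replicate 1 highest and restored replicate 1 lowest. The 2 genes of these lists that edgeR called without the pairs were Oasl1 and Ifi47. Oasl1, an OAS-like protein, read 59.1, 13.4 and 13.2 CPM against 0.982, 2.58 and 2.02 CPM (adjusted p 0.0600, and 0.00917 without the pairs). Ifi47, an interferon-induced GTPase, read 139, 73.2 and 53.02 CPM against 4.10, 12 and 7.64 CPM (adjusted p 0.0614, and 0.0114 without the pairs).

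Over the 26 tested genes of interferon signalling, which hold receptors, kinases and factors, the median was 0.18 and none was called. At an unadjusted p under 0.05 there were 4, all higher, and DESeq2 and limma-voom called 2 each. Of all genes, 6.9% were higher at that p, and DESeq2 and limma-voom called 2.78% and 1.07% higher. All 16 tested interferon-induced GTPases were above 0 in each pair, where 25.4% of all genes were. Their median was 2.80 and their summed level was 1595, 553 and 513 CPM against 80.3, 279 and 265 CPM. None was called with the pairs, 7 were at an unadjusted p under 0.05, DESeq2 called 5, and limma-voom called 1. These were all higher and stand against the same shares of all genes.

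Of 29 tested genes of antigen presentation, 24 were above 0 in each pair, where 25.4% of all genes were, and the median was 1.38. Where 0.646% of all genes were called higher, 1 of the list was. That was H2-Ab1, the beta chain of an MHC class II molecule, at 36.0, 9.14 and 5.52 CPM against 4.55, 2.99 and 0.890 CPM (log2 2.41, SE 0.38, adjusted p 0.0272). Its adjusted p ranged from 0.0885 to 0.234 with a pair left out. DESeq2 called 6 genes of the list, all higher, where it called 2.78% of all genes higher. The class I heavy chain H2-K1 read 2274, 543 and 944 CPM without Fadd and 230, 285 and 455 CPM with it (log2 1.73, SE 0.65, adjusted p 0.242). Its light chain B2m read 1468, 463 and 865 CPM against 177, 310 and 555 CPM, and these groups overlapped (log2 1.38, SE 0.53, adjusted p 0.252). Of 14 leukocyte markers, Ptprc, Cd3e, Adgre1 and Tyrobp were at 0 in all these libraries, and 3 others passed the filter. The sum over the 14 was 4.11, 2.55 and 1.93 CPM without Fadd and 3.76, 2.29 and 3.23 CPM with it. It was thus highest in knockout replicate 1, where H2-Ab1 was also highest.

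Promoters of Isg15, Ifit1 and B2m are shown because each holds the core of the interferon-stimulated response element. Capitals mark matches, on either strand, to GAAA followed by 2 bases of any kind and GAAA again, in windows of the same build and length as above. Isg15 (chr4:156200769-156201068, reverse strand) holds 3 overlapping matches that begin 78, 72 and 66 bases before the start. Ifit1 (chr19:34640639-34640938, forward strand) holds matches 104 and 85 bases before it, and B2m (chr2:122147437-122147736, forward strand) 1 match 139 bases before it. The pattern occurs in 319 of the 10544 promoters of tested genes (3.03%). The genes shown were picked for holding a match, and the windows of H2-K1, Oasl1 and Ifi47, also named above, hold none. A match is a description of the letters and shows no binding, and since the table holds promoters for 64.3% of the genes tested, no share is given for the lists.
Isg15: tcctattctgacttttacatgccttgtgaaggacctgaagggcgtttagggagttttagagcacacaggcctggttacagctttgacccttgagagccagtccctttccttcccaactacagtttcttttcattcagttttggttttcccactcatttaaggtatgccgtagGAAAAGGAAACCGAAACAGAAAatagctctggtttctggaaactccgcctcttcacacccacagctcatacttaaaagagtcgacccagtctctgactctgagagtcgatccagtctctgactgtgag
Ifit1: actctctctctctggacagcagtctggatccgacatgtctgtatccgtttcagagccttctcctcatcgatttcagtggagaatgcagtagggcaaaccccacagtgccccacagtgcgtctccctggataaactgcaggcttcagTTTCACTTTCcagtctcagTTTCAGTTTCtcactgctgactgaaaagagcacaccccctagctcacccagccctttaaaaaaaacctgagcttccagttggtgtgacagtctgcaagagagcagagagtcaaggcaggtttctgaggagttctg
B2m: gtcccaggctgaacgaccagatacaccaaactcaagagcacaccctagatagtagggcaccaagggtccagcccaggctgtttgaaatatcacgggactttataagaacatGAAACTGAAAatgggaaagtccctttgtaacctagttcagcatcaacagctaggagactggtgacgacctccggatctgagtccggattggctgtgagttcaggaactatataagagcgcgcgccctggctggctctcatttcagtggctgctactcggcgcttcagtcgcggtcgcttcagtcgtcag

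**Figure D5:**
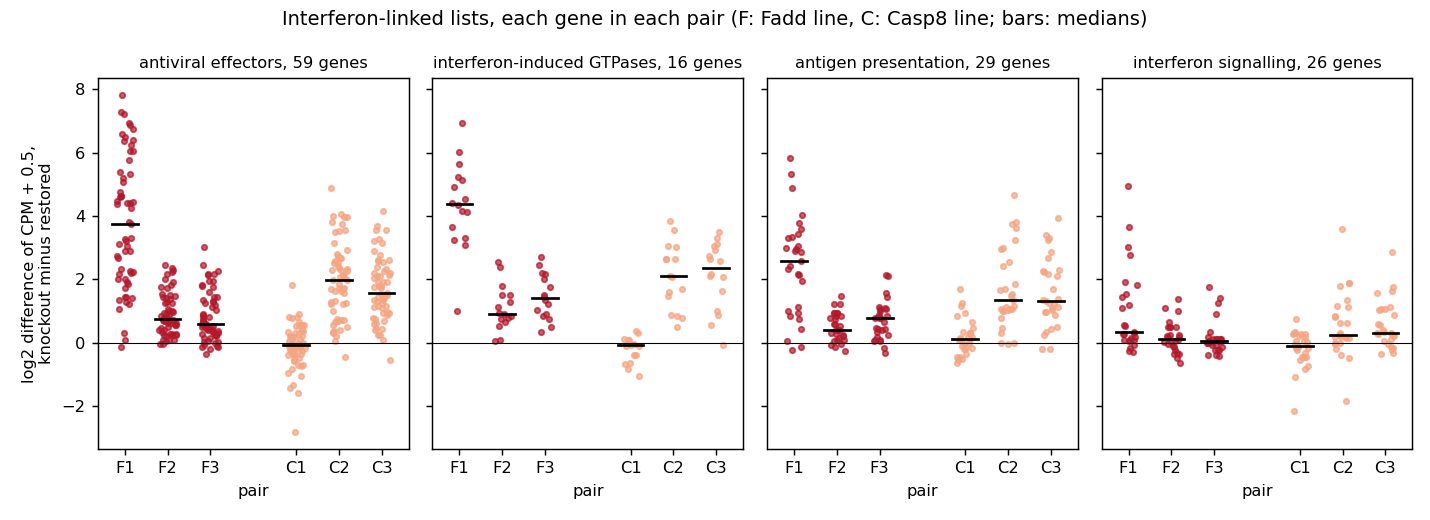
Log2 difference of CPM plus 0.5 (knockout minus restored) for each gene of the interferon-linked lists, by pair, in the Fadd line (F1 to F3, red) and the Casp8 line (C1 to C3, orange), with bars at the medians. For the antiviral effectors the Fadd-line medians are 3.73, 0.73 and 0.58, whereas those of the Casp8 line are -0.08, 1.96 and 1.57, so pair 1 is the highest in the Fadd line and the lowest in the Casp8 line.

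Of 31 tested genes of NF-kappaB signalling and inflammation, 2 were called higher and none lower (0.646% and 2.06% over all genes). The median was 0.65, and 19 were above 0 in each pair, where 25.4% of all genes were. Nfkb2, the precursor of the p52 subunit of the noncanonical pathway, read 276, 237 and 203 CPM without Fadd and 115, 143 and 146 CPM with it (log2 0.82, SE 0.15, adjusted p 0.0460). Tnip1, which binds the deubiquitinase A20, read 66.4, 55.8 and 51.2 CPM against 36.4, 42.5 and 32.7 CPM (log2 0.64, SE 0.12, adjusted p 0.0423). Neither gene's groups overlapped, but with any pair left out the adjusted p was above 0.05 for both. Of 22 tested nucleic acid sensors, 1 was called, where 2.71% of all genes were. Zcchc3, a cofactor of cGAS and RIG-I-like receptors, had 1 count over the knockout libraries against 72 over the restored ones, a ratio of 84.4 with an interval of 14.7 to 3380 (adjusted p 0.0146, and 0.121 at most with a pair left out).

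Apart from Fadd, none of the 24 tested genes of the extrinsic death pathway was called, with 5 others at an unadjusted p under 0.05 and 3 others called by DESeq2. Among 26 genes of intrinsic apoptosis none was called, 3 were at an unadjusted p under 0.05 and DESeq2 called 2. Of 31 genes of the endoplasmic reticulum and integrated stress responses none was called, 5 were at an unadjusted p under 0.05 and DESeq2 called 4. Of 26 cholesterol and lipid genes none was called, 4 were at an unadjusted p under 0.05 and DESeq2 called 1. edgeR without the pairs and limma-voom called none in these last 3 lists. Of all genes, 2.71% were called, 16.8% were at an unadjusted p under 0.05, and DESeq2 called 8.21%. Without the pairs 1.52% of all genes were called, and with limma-voom 3.23%.

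Whether a change without Fadd differed from that without Casp8 was tested in the same fit. For 239 genes the difference between lines was called (1.46%), 29 with a higher change in the Fadd line (0.177%) and 210 with a lower one (1.28%). Of the 444 genes called in the Fadd line, 203 were among them, 25 of the rises and 178 of the falls. Cdkn1c, Grem1, Zfp422, Nid1, Col1a2 and Hoxc11 were each called in this difference. The interferon genes named above were not, with an adjusted p of 0.952 for Isg15, 0.968 for Ifit1 and 0.934 for Zbp1, which does not show that the lines respond alike. In the Casp8 line the antiviral effectors had pair medians of -0.08, 1.96 and 1.57. Among genes called in the Fadd line that are not protein coding, Gm53 and Hoxa11os were 2 of the 3 named by the rule, which asks for 5 CPM in the higher group. Gm53 had 3 counts over the knockout against 855 over the restored libraries (ratio 334, interval 114 to 1620, adjusted p 0.00741).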

How the data were processed

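RNA was measured by total RNA sequencing (stranded TruSeq kit, per the labels' protocols). Per the submitters' processing notes, Trim Galore 0.5.0, STAR 2.7.5a and RSEM were among the tools and mm10 was the build, and the authors deposited expected counts and TPM values per gene for each library. Whether counting used strand was not given in the sources used here. Expected counts were rounded (96.05% of those above 0 were whole), 92 spike-in rows without counts were left out, and edgeR 4.0.16 in R 4.3.3 was run with TMM and a minimum count of 10 in filterByExpr. All 12 libraries shared 1 fit with the replicate number as a block within each line, which leaves 4 residual degrees of freedom. P-values were adjusted by the Benjamini-Hochberg method over 16396 genes. Deposited TPM values were used only to compare levels between genes.

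Deviations from the group means were correlated over genes between same-numbered libraries, at 0.66, 0.39 and 0.64 for the Fadd-line pairs and 0.20, 0.31 and 0.13 for those of the Casp8 line. Between different numbers the correlations ran from -0.64 to 0.18 in the Fadd line and from -0.27 to 0.14 in the Casp8 line. Casp8-restored replicate 3 correlated slightly more with knockout replicate 2 (0.144) than with its own partner (0.127). The rule for this comparison also treats the numbers as pairs. The p-values measure only the spread between these cultures. Pair differences used CPM plus 0.5. Positions came from GENCODE M21 for 55480 of 55573 genes, and promoters from RefSeq on GRCm38.p6. The deposited table of endogenous retroviruses was not used here. DESeq2 1.42.0, limma-voom (limma 3.58.1), other size factors, other filters, the fit without pairs, the 6 libraries alone and leaving out pairs or libraries were tried as alternatives.

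Named genes were 6 death-pathway genes, the 12 largest falls, the 10 largest rises and the 8 most abundant among called coding genes that averaged 5 CPM or more in 1 group and whose groups do not overlap. Up to 4 called members per list, 3 called noncoding genes, 8 genes of the difference between lines and 12 textbook members were added. The values of 1 textbook member are not reported here. Members and the 31 gene lists were chosen with earlier results of these data known. Chromosome stretches, their genes, and other names outside this rule (among them Loxl1, Efemp1, Vcan, Loxl2, Fbln1, Wnt5a, Igfbp4, Tbx3, Sgce, Impact, Fn1, Oasl1 and Ifi47) were chosen after their values were seen.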

Additional observations from a re-analysis of the deposited data

Results flagged for a closer look

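In 8 genes the change without Fadd differed from the change without Casp8, by the test of that difference in the edgeR fit, and these 8 are the 4 highest and 4 lowest among called protein-coding genes with a mean of 5 CPM or more in any of the 4 groups. Log2 values are the Fadd-line change minus the Casp8-line change. Cadm1 stood at -15.38 (adjusted p 0.00492), Grem1 at -12.42 (adjusted p 5.2e-05), Gpx7 at -11.80 (adjusted p 0.0109) and Erfe, which encodes the hormone erythroferrone, at -11.75 (adjusted p 0.0275). Hoxc11 stood at 12.16 (adjusted p 0.00302), Negr1 at 6.84 (adjusted p 0.0394), Bambi, a decoy receptor of the TGF-beta family, at 4.66 (adjusted p 0.0426) and Hoxa11 at 3.81 (adjusted p 0.00302). Gpx7, Erfe and Hoxc11 had no counts in 1 group of the Fadd line, so their fitted values depend on the prior count and are no bounds. In the Casp8 line Cadm1 averaged 0.822 ± 1.42 CPM (SD, n = 3) in the knockout and 0.0189 CPM in the restored cells. Its Casp8-line pair differences were 2.46, -0.05 and 0, so that side of the Cadm1 value rests on pair 1 at a low level. Within the Fadd line, Erfe was at least 87.5-fold lower without Fadd, and Bambi read 1.37, 1.68 and 1.27 CPM against 0.149, 0.313 and 0.0651 CPM.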

How the results depend on the processing

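Fewer or more genes were called under several settings, while falls outnumbered rises in each. In the Fadd line DESeq2 called 1346 (455 higher, 891 lower), the 6 libraries alone 1284 (465 and 819) and the fit without the replicate block 250 (47 and 203), and limma-voom called 176 higher. With 1 pair left out 64 to 94 were called (6 to 13 higher, 58 to 81 lower), and with 1 library left out and no block 103 to 181 (19 to 26 higher, 84 to 158 lower). For the difference between lines DESeq2 called 876 (170 and 706) and the fit without the block 138 (9 and 129). With a pair left out there were 42 to 70 (4 to 6 higher, 38 to 64 lower), and with a library left out and no block 92 to 118 (6 to 9 higher, 85 to 109 lower). No filter on low counts called 546 in the Fadd line, a minimum count of 50 called 400 and relative log size factors called 438. Of 90 named values, 64 kept their side of the threshold without the pairing and 26 fell short. Directions turned only for 4 uncalled genes. With pairs or libraries left out Mlkl ranged from -0.6254 to 0.13, Col3a1 from -0.9296 to 0.1708, Cdkn1a from -0.823 to 1.122 and Trim28 from -0.1604 to 0.2148. Cdkn1a was 0.01271 with limma-voom and Trim28 was -0.001587 with no filter. The cause was not tested, beyond the smaller number of samples when libraries are left out. Genes under 1 CPM are limited by counting error.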

Other observations

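Other called genes near 0 in 1 group, picked after their values were seen, included regulators and enzymes at low levels. Adcy1, an adenylyl cyclase, had no counts without Fadd and read 0.320, 2.63 and 7.23 CPM with it, at least 179-fold lower (edgeR adjusted p 0.0162). Ebf3, a transcription factor of the early B-cell factor family, had 2 counts over the knockout against 302 over the restored libraries (ratio 177, counting interval 48.6 to 1470, adjusted p 0.00787). Ctsf, the lysosomal protease cathepsin F, had 3 counts against 405 (ratio 158, interval 53.8 to 771, adjusted p 0.00196). In the opposite direction, Dio2, which activates thyroid hormone, had 67 counts over the knockout against 1 over the restored libraries (ratio 57.2, interval 9.91 to 2290, adjusted p 0.0205). All 4 stayed under 10 CPM in every library, and their ratios rest on the few or no counts of the lower group.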
